A study of Mus musculus with 2 samples.

Results

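New antisense loci are stretches of the mouse genome where long reads ran on the strand opposite to another gene and were not given to an annotated gene. They were taken as all transcript models whose gene is labelled antisense in the deposited quantifications, and models were joined into 1 locus where their exons shared at least 1 base on the same strand. The rule gave 13699 loci, of which 4 lay on synthetic spike-ins and 13695 in the mouse genome. Of the mouse loci, 117 had no annotated gene on the other strand and 221 overlapped an annotated exon on their own strand. The mouse loci stood among 33642 features with reads, the others being 15410 annotated genes and 4537 new intergenic loci. Replicate 1 held 6145 of the antisense loci, replicate 2 held 10537, and 2987 were found in both.

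Male mice of the strain B6CASTF1/J, F1 animals from crossing C57BL/6J with CAST/EiJ, gave heart tissue at 18 to 20 months of age. The series has 1 group of 2 libraries, each from 2 µg of RNA. The libraries are labelled as biological replicates 1 and 2 and carry the same donor identifier, so nothing says that they came from separate animals and every comparison is between these libraries. All reads came from whole tissue, in which fewer cells of a type and less RNA per cell cannot be told apart.

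Antisense transcripts are RNAs made from the strand opposite to another gene. Some begin at a promoter shared with the opposite gene and run away from it, some converge on it and overlap its 3' end, and some lie wholly inside it. In mammals well studied examples act on chromatin, splicing or the stability of the RNA they overlap, and most others have no known role. In long-read cDNA data the strand of a read is set when the cDNA is made and when the read is oriented, so a read of the wrong orientation also appears as antisense.

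The sequence at the ends of some of the loci with the most reads is given first. Each line holds 30 bases of mm10, read 5' to 3' on the strand of the locus from the GENCODE M21 transcripts of the gene opposite. The lower-case letters are the last 10 bases of the locus's leading model in that library, the one with the most reads, and the capitals are the 20 bases after its 3' end.
Klhl31 locus, replicate 1, chr9:77656649-77656678, minus strand: agaaaaaaggAAAAAAAAAAAAAAAAAAAA
Msrb3 locus, replicate 2, chr10:120783305-120783334, plus strand: aactttggacAAAAAAAAAAAAAAAATGGA
2900097C17Rik locus, replicate 1, chr2:156391502-156391531, plus strand: taacacaaaaTGTAAAAAAAAAAAAAAAAA
Qk locus, both replicates, chr17:10212392-10212421, plus strand: tctttcaattAAAAACAAAACACAAAAGAA
Actb locus, replicate 1, chr5:142903645-142903674, plus strand: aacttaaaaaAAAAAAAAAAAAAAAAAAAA
Cdv3 locus, both replicates, chr9:103355304-103355333, plus strand: ttctttatccCTAAGGGAAAAGAAATGTAA
Runs of adenine in the genome stood at or just after the 3' ends opposite Klhl31, Msrb3, 2900097C17Rik, Qk and Actb. The end opposite Cdv3 was followed by 11 adenines in 20 bases, with no long run. The end opposite Tmem250-ps, another leading locus, is not shown and was followed by 8 adenines in replicate 1 and 5 in replicate 2. These lines are examples, and the shares over loci of at least 50 reads are given below.

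At the 5' ends of some loci the strand of the opposite gene carried a polyadenylation signal, the hexamer that directs cleavage of a transcript's 3' end. The next lines give the last 30 bases on the strand of the opposite gene, up to the first base of the antisense model, with the hexamer in capitals.
Msrb3, opposite the 5' end in replicate 2, chr10:120781096-120781125, minus strand: tcggtAATAAAgtttctttataaaaatgtc
Qk, opposite the 5' end in replicate 2, chr17:10210179-10210208, minus strand: aagcAATAAAcatttattgaacaaaagaaa
Pdk4, opposite the 5' end in both replicates, chr6:5483351-5483380, minus strand: ttttatAATAAAtatttttattataatagt
Cpt1b, opposite the 5' end in both replicates, chr15:89416405-89416434, minus strand: acttggAATAAAttcttactttagaacctt
In these 4 examples the antisense model began exactly at an annotated 3' end of the gene opposite. That was not so for every locus with the hexamer: opposite Lpl, which also carried it, the model began at −339 nt from the nearest annotated 3' end, inside the gene.

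The first question was how much of the heart's RNA these loci held. Antisense models took 19159 of 688861 mouse reads in replicate 1, a share of 2.78% (95% Clopper-Pearson interval 2.74 to 2.82%), and 34991 of 1003999 in replicate 2, a share of 3.49% (3.45 to 3.52%). The mean was 3.13 ± 0.498% (SD, n = 2). New intergenic models took 0.646% and 0.788% of mouse reads. The antisense share was lower in replicate 1 than in replicate 2 by a two-sided Fisher's exact test on reads (p = 2.22e-146), which sets it against counting error only. All intervals and the limits for counts of 0 cover counting error only, since reads without molecular identifiers are not independent molecules. A count of 0 allows up to 4.36 CPM (reads per 1000000 mouse reads) in replicate 1 and 2.99 CPM in replicate 2.

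Reads were spread thinly over many loci. Of the loci seen in a library, 71.5% had 1 read in replicate 1 and 67.6% in replicate 2. The 10 loci with the most reads held 24.2% of antisense reads in replicate 1 and 16.1% in replicate 2. The locus opposite Gm26825, described below, alone held 7.5% of antisense reads in replicate 1 and had 0 reads in replicate 2. In both libraries together, 607 loci had at least 10 reads and 111 had at least 50. Models were short, with a median of 712 nt in replicate 1 and 570 nt in replicate 2. The deposited annotation also held antisense models of a single base, 134 with 508 reads in replicate 1 and 232 with 1622 reads in replicate 2. Such a model cannot be the extent of its reads, and its ends were used as deposited.

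Loci with more reads were more often seen again in the other library. Of antisense loci with at least 1 read in replicate 1, 48.6% (47.4 to 49.9%) had a read in replicate 2, and of those with at least 5 reads 96.8% (94.7 to 98.2%) did. From replicate 2 the shares found in replicate 1 were 28.3% and 86.1% at the same minimums. New intergenic loci were found again at 40.2% and 86.1% from replicate 1 and at 21.7% and 84.5% from replicate 2, and annotated genes at 91.8% and 99.8% from replicate 1 and at 84.9% and 98.9% from replicate 2. The antisense class thus lay above the intergenic class at each of these minimums, with intervals that overlapped at 5 reads from replicate 2. Across the 2987 loci with reads in both, log2 CPM had a Pearson r of 0.80 and reads a Spearman rho of 0.63 between the libraries. These are correlations across loci, which share the libraries and are not independent replicates.

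**Figure D1:**
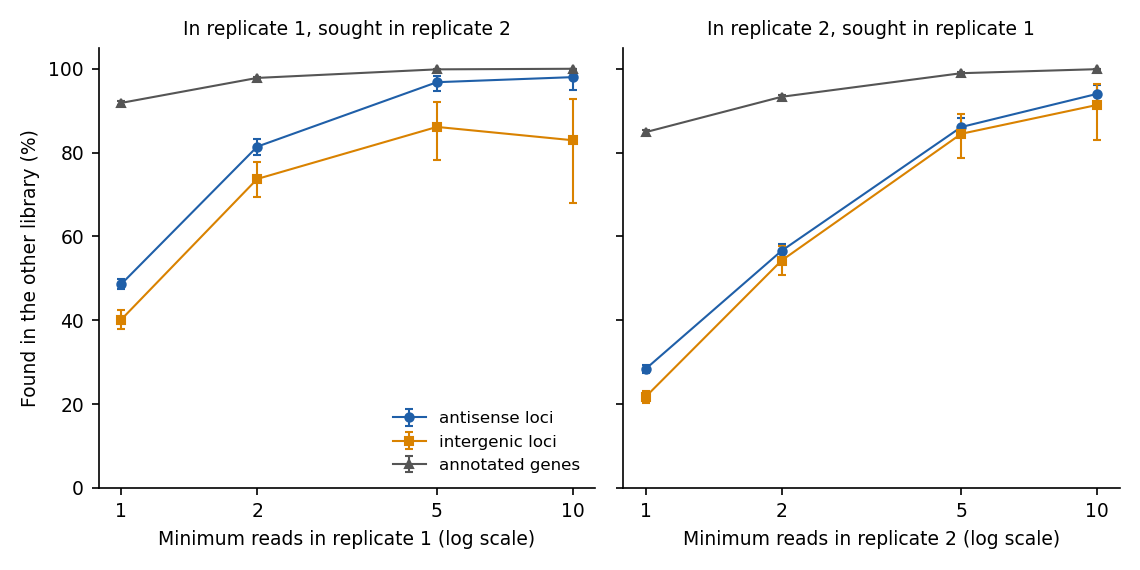
Share of features found in the other library (y, %) by the minimum number of reads in the library named above each panel (x, log scale), for antisense loci (circles), intergenic loci (squares) and annotated genes (triangles), with 95% Clopper-Pearson intervals. Antisense loci go from 48.6% at 1 read to 96.8% at 5 reads from replicate 1.

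The second question was where the loci lie on the genes opposite. A partner gene was found for 13578 loci, and 93.5% of all loci lay opposite a protein-coding gene. The locus lay wholly inside the partner's body in 94.6% of these, ran past its 5' end in 3.43% and past its 3' end in 1.72%. The partner was among the genes that the authors' annotation names for the same locus in 97.4%. A gene on the locus's own strand ended within the 10000 nt before it for 15.4% of all loci and for 23.7% of those with at least 10 reads.

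Most loci with few reads lay opposite introns, and most loci with many reads lay opposite 3' untranslated regions (3' UTRs, the part of a messenger RNA after the stop codon). By the class that held most of a locus's bases, 73.3% of all loci were intronic and 13.5% lay in the 3' UTR of the partner. Of loci with at least 10 reads 55.2% (51.1 to 59.2%) lay in the 3' UTR, and of those with at least 50 reads 77.5% (68.6 to 84.9%) did. Introns held 28.7% and 9.01% of these loci, and coding sequence 2.14% and 3.60%. In the partner genes of the 111 loci of at least 50 reads, 3' UTRs made up 3.99% of the gene bases and introns 91.2%. The midpoint of the locus stood in the last 20% of the partner gene for 75.7% of the loci with at least 50 reads and for 23.7% of all loci.

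The reads of both strands were then compared over each locus. Since loci were kept for their antisense reads and bounded by the antisense models, a high antisense share is partly set by that choice. Of the 607 loci with at least 10 reads, 64.3% had more antisense reads than overlapping reads of annotated-gene models on the other strand. Their median antisense share was 71.4%. At 132 of these 607 loci (21.7%) no reads on the other strand overlapped, and such loci count among the 64.3% and raise the median. A locus in an intron can lack overlapping reads although its gene has many. The intronic locus opposite Hadhb had 0 and 0 such reads, while the gene had 3135 and 4115. Of the loci with at least 50 reads, 6.31% had no overlapping reads on the other strand. Of the 111 loci with at least 50 reads, 77.5% had more antisense reads than reads of annotated-gene models that overlapped them on the other strand. The median antisense share of both strands was 82.1%, with quartiles of 54.1 and 94.6%. Per library this median was 78.7% in replicate 1 and 83.9% in replicate 2. Across the 600 loci of at least 10 reads with a partner, Spearman's rho between antisense reads and the partner gene's reads was 0.03, where the points share the libraries and their depth. Genes with very many reads could have almost none opposite, as Myh6, the alpha myosin heavy chain, with 11708 and 15468 reads of its own and 2 loci of 1 and 4 reads and 0 and 1 reads.

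Loci were ranked by the lower of their read counts in the libraries, and the first ran over chr17:39843013-39848035 on the minus strand and had 1033 reads in replicate 1 and 1169 in replicate 2. It runs past the 5' end of Gm42418, and the authors' annotation names Gm26917 for it. It shares annotated exons on its own strand with AY036118 and CT010467.1. Gm42418 and AY036118 are known to share sequence with ribosomal RNA, so the place of these reads is uncertain. Annotated-gene models on the other strand had 40 and 58 reads there.

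Opposite Klhl31, a kelch-like protein of striated muscle, the locus at chr9:77656669-77657908 had 452 reads in replicate 1 and 816 in replicate 2. Klhl31 itself had 10 and 15 reads in all, of which 9 and 14 overlapped the locus. The antisense strand thus held 98.0% and 98.3% of the reads there. All of the locus lay in the 3' UTR of Klhl31. In replicate 2, 737 of its reads were on a model of 1 nt at the deposited position chr9:77656683, so the sequence is given for replicate 1 only.

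Opposite Tmem250-ps, annotated as a long intergenic non-coding RNA, the locus at chr2:26136814-26138383 had 433 and 783 reads, against 9 and 12 on the other strand. Opposite Cdv3, a gene named for its induction in the ventricle of carnitine-deficient mice, the locus at chr9:103354029-103355313 had 223 and 435 reads, against 12 and 7. At both loci the antisense strand held more reads than the other strand in both libraries. The Cdv3 locus lay in the 3' UTR, as did those opposite Msrb3, Qk and Actb below.

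Opposite Msrb3, a methionine sulfoxide reductase, 217 and 449 antisense reads stood against 40 and 54 on the other strand (chr10:120781096-120783314). Opposite the long intergenic non-coding RNA 2900097C17Rik, 179 and 381 antisense reads stood against 28 and 41 (chr2:156388065-156391511). Opposite Dhrs3, which reduces retinaldehyde to retinol, 201 and 459 antisense reads stood against 19 and 27 (chr4:144893077-144893585). The Dhrs3 locus differed from the others in place: it lay over the first part of the gene, in the 5' UTR, and its 3' end stood exactly on an annotated start of Dhrs3.

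Qk encodes the RNA-binding protein Quaking, a regulator of splicing, and Actb the cytoplasmic beta actin. Opposite Qk, 161 and 374 antisense reads stood against 173 and 247 on the other strand (chr17:10209093-10213359). Opposite Actb, 155 and 282 antisense reads stood against 133 and 168 (chr5:142903234-142903654). At these 2 loci the strands were nearer to balance, with antisense shares of 48.2% and 60.2% for Qk and 53.8% and 62.7% for Actb.

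**Figure D2:**
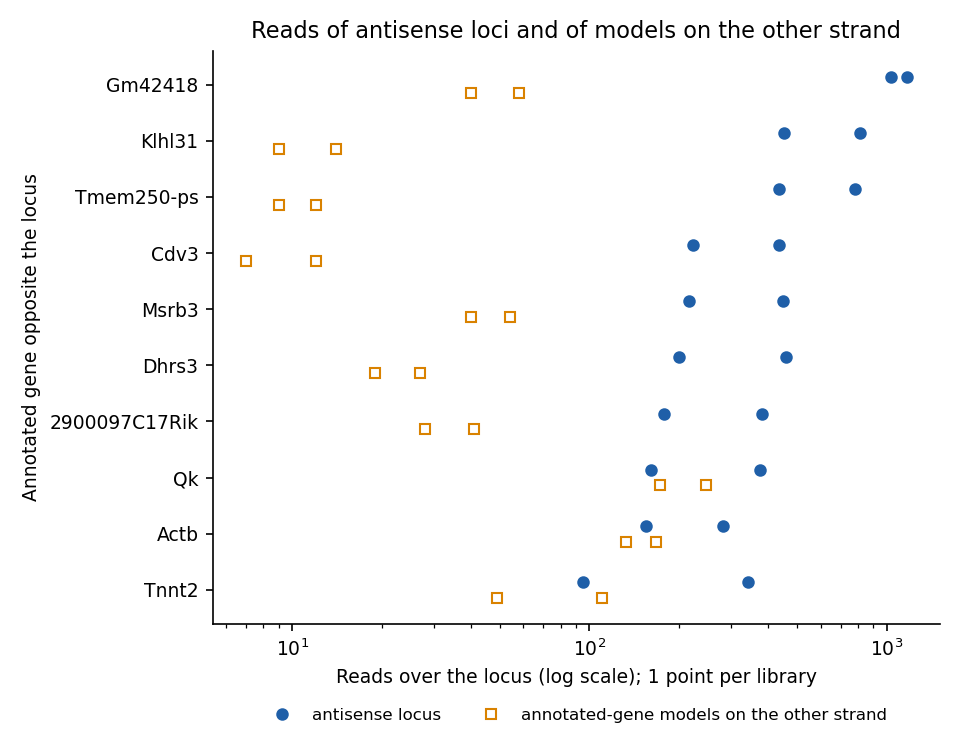
Reads over each locus (x, log scale) for antisense models (filled circles) and annotated-gene models on the other strand (open squares), 1 point per library, for 9 of the 10 loci that lead by reads in their lower library, and the Tnnt2 locus. The circles opposite Klhl31 stand at 452 and 816 reads and the squares at 9 and 14.

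The third question was how the loci begin and end. For sequence, the leading model of each library was used at the 111 loci of at least 50 reads, because the window after the 3' end could be read for 30.3% of all antisense models in replicate 1 and 26.1% in replicate 2. At these loci 88.2% and 84.5% of the windows were readable. The 20 bases after the 3' end held at least 12 adenines in 51 of 97 loci in replicate 1 (52.6%, 42.2 to 62.8%) and in 54 of 93 in replicate 2 (58.1%, 47.4 to 68.2%). Of all windows of 20 bases on the antisense strand of the partner genes' exons, 2.78% held as many. These windows, like those for the motif below, cover all such exons, while 77.5% of the loci lay in 3' UTRs. No value for 3' UTRs alone was taken. Of these 111 loci, 8 in replicate 1 and 5 in replicate 2 had a leading model of 1 nt. The part of these adenine-rich stretches in the read counts was not tested.

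The motif AATAAA or ATTAAA was searched for in the 40 bases up to the 3' end of the models, on their own strand. At models shorter than 40 nt this window reached beyond the model. It was in 7 of 101 loci in replicate 1 (6.93%) and in 8 of 101 in replicate 2 (7.92%). Weighted by reads the shares were 20.5% and 7.22%, and without the locus opposite Gm26825 3.38% and 7.22%. Of known transcripts with at least 50 reads, 75.2% held it there, and of all windows of 40 bases on the antisense strand of the partner exons 4.83% did. Searched for on the strand of the opposite gene, in the 40 bases up to the 5' end of the model, the motif was in 28 of 102 loci in replicate 1 (27.5%) and in 28 of 101 in replicate 2 (27.7%). The same search at the 5' ends of known transcripts found it in 0.635%, and 3.51% of all windows on the partner strand of the partner exons held it.

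**Figure D3:**
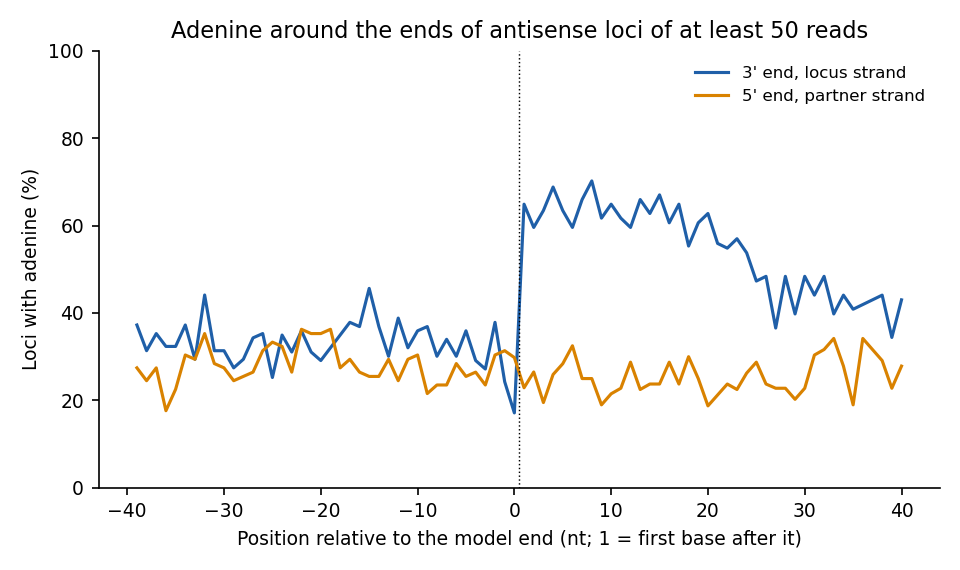
Share of loci with an adenine (y, %) at each position (x, nt, with 1 the first base after the end), around the 3' end on the strand of the locus and around the 5' end on the strand of the opposite gene, for loci of at least 50 reads with that base readable. Adenine averages 63.2% over the 20 bases after the 3' end and 32.8% over the 20 positions farthest upstream of it, against 24.7% after the 5' end on the strand of the opposite gene.

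Many model ends stood on an annotated end to the base, for which the model with the most reads in either library was used. Among the 600 loci of at least 10 reads with a partner, the 5' end of the model stood exactly on an annotated 3' end of the partner in 112 and was 1 to 50 nt from one in 0. The 3' end stood exactly on an annotated 3' end of the partner in 76 and was 1 to 50 nt from one in 4. The 5' end stood exactly on an annotated start of the partner in 17 loci, and the 3' end in 30. A model of 1 nt has both ends on the same base, so it can count among both the 112 and the 76, as opposite Ccng1 and Eif5a. Whether reads ended at these bases or the deposited models took the annotated position was not tested.

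The sequence features divided along this line. The loci with a leading model of 1 nt, 8 in replicate 1 and 5 in replicate 2, were kept, and the division was not repeated without them. Among loci of at least 50 reads whose 3' end was not on an annotated transcript end, 48 of 75 in replicate 1 (64.0%, 52.1 to 74.8%) and 52 of 73 in replicate 2 (71.2%, 59.4 to 81.2%) were followed by at least 12 adenines. Where the 3' end was on an annotated end, this held for 3 of 22 and 2 of 20. The motif on the partner strand was at the 5' end of 25 of 39 loci in replicate 1 and 22 of 36 in replicate 2 whose 5' end was on an annotated end, and of 3 of 63 and 6 of 65 of the others. The position of the annotated 3' end itself goes with the motif, as the value for known transcripts shows.

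**Figure D4:**
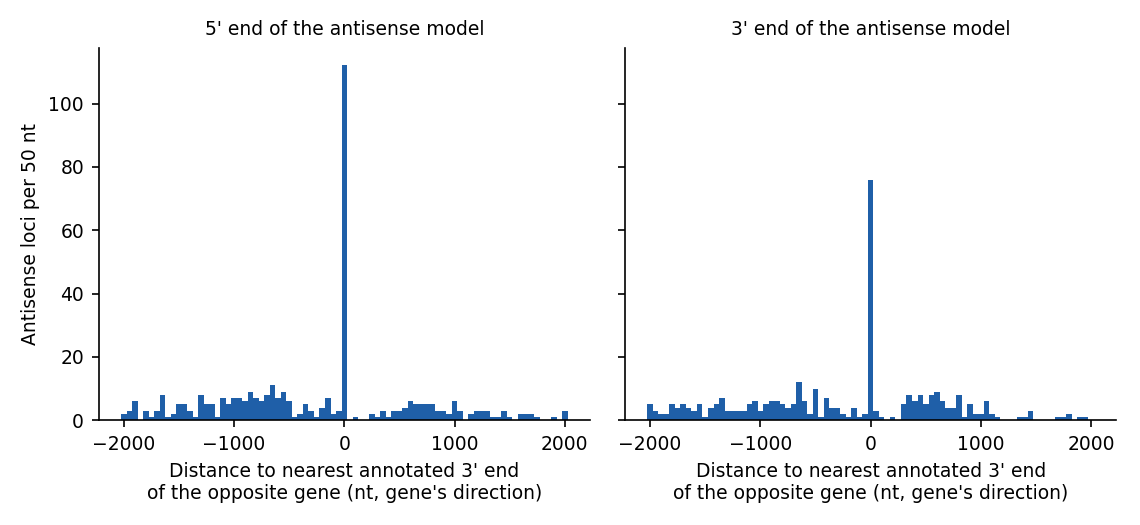
Number of antisense loci of at least 10 reads per 50 nt (y) by the distance of the model's 5' end (left) and 3' end (right) to the nearest annotated 3' end of the opposite gene (x, nt, positive past the end in the gene's direction). The peaks at 0 hold 112 loci and 76 loci that stand on the annotated base, with few loci in the next bins.

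The 3' ends were more alike between libraries than the 5' ends. Of 578 loci with reads in both libraries and at least 10 together, 74.7% (71.0 to 78.2%) had 3' ends within 10 nt and 42.9% (38.8 to 47.1%) had 5' ends within 10 nt. For 119 intergenic loci these shares were 84.9% and 62.2%.

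The fourth question was whether the loci are spliced. A multi-exon model was present at 5.22% of antisense loci in each library, and multi-exon models held 3.32% of antisense reads in replicate 1 and 3.26% in replicate 2. In intergenic loci they held 15.4% and 13.4% of reads, and in known transcripts 95.3% and 94.0%. Of the introns in antisense models, 86 of 520 in replicate 1 (16.5%) and 152 of 941 in replicate 2 (16.2%) had both ends equal to those of an annotated intron on the other strand. Weighted by reads these shares were 28.5% and 29.0%. None was equal to an annotated intron on its own strand. The libraries shared 175 introns, of which 40 were such mirror images. An intron's ends carry different bases on the 2 strands, and those bases could be read for 5.99% of the introns, so the splice sites were not analysed here.

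The rule for multi-exon loci named those opposite Sod2, Ptp4a2, Klhl24, Adra1a and Msi2, but nearly all of their reads were single-exon. Sod2, the mitochondrial superoxide dismutase, had 132 and 253 antisense reads, of which 0 and 1 were spliced. Ptp4a2, a protein tyrosine phosphatase, had 88 and 200, of which 0 and 1 were spliced. Klhl24 had 51 and 97 reads, the alpha-1A adrenergic receptor gene Adra1a 38 and 81, and the RNA-binding protein gene Msi2 38 and 70, with at most 5 spliced reads in a library.

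A second set was therefore chosen after the values were seen, by the most reads in the lower library among the 89 loci where more than 50% of the reads of each library were spliced. Opposite Ubl3, a ubiquitin-like protein, 34 of 35 reads in replicate 1 and 65 of 65 in replicate 2 were spliced, and all of these crossed an intron of 39950 nt. Opposite Mbnl1, the muscleblind splicing factor, 27 of 29 and 55 of 69 reads were spliced, with 26 and 55 over an intron of 65789 nt. Both introns were equal to an annotated intron of the gene on the other strand. The same was true opposite Bcl2l1, an inhibitor of apoptosis, where 29 of 29 and 23 of 24 reads were spliced, and opposite Ccdc80, a secreted matrix protein, where 12 of 16 and 8 of 13 were.

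The locus next to 9030025P20Rik had introns of its own. All 21 reads in replicate 1 and all 28 in replicate 2 were spliced (chr17:14981576-14992856, minus strand), in 7 and 8 models with up to 3 exons. Its most used introns spanned 6737 nt, with 11 and 20 reads, and 4143 nt, with 13 and 17 reads. None of its introns was annotated on either strand. The locus ran past the 3' end of 9030025P20Rik, and on its own strand the gene Gm3448 ended 2931 nt before it. Whether its reads belong to that gene was not tested. The other strand held 2 and 1 reads.

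The fifth question was which heart genes had antisense loci opposite. For comparison with the lists below, 6088 of the 15410 annotated genes with reads were the partner of a locus. Loci of at least 10 reads had 563 partner genes in all, with or without reads of their own. Of 25 sarcomere genes 16 had a locus and 4 had one of at least 10 reads, namely Ldb3, Pdlim5, Tnnt2 and Ttn. Tnnt2, cardiac troponin T, stood out with 95 and 343 antisense reads at chr1:135849741-135850379, against 49 and 110 on the other strand and 329 and 534 for the whole gene. Opposite Ttn, titin, the locus had 4 and 11 reads. For the whole sarcomere list antisense reads were 0.371% and 0.680% of antisense and gene reads together.

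Calcium and excitation genes had many loci of few reads. Of 15 genes 14 had a locus, and the 86 loci together had 116 and 182 reads. Ryr2, the calcium release channel of the sarcoplasmic reticulum, had 28 loci, the most of any gene, with 45 and 52 reads in all, beside 71 and 91 reads of its own over a gene body of 553.844 kb. Opposite Gja1, the gap junction protein connexin 43, the locus had 19 and 41 reads, against 663 and 786 on the other strand. Casq2, calsequestrin, had a locus of 3 and 7 reads. Across all genes, the 53 partners with at least 10 loci had a median body of 379 kb, and the 3939 partners with 1 locus had a median of 25.7 kb.

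Energy metabolism genes had few antisense reads, 62 and 176, beside 98457 and 144423 reads of the genes themselves. Of 29 genes 17 had a locus, and antisense reads were 0.0629% and 0.122% of antisense and gene reads. Opposite Pdk4, the kinase that holds back pyruvate dehydrogenase, the locus had 9 and 31 reads, and opposite Cpt1b, the muscle carnitine palmitoyltransferase, 8 and 6. Both began exactly at the gene's annotated 3' end. Hadhb had loci of 10 and 35 reads and of 3 and 8 reads, Cd36 one of 4 and 18, Uqcrc1 one of 6 and 13, and Lpl one of 6 and 10.

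Transcription and splicing factors had a higher antisense share than the lists above, with most of the reads from 1 gene. Antisense reads were 25.4% in replicate 1 and 34.5% in replicate 2 of antisense and gene reads over 15 genes, of which 13 had a locus. Qk alone held 191 and 436 of these 246 and 574 antisense reads, and without it the share was 9.43% and 14.8%. Most of the remaining 55 and 138 antisense reads were again from 1 gene, Mbnl1, with 31 and 89. The Qk loci of at least 10 reads had 161 and 374 reads at the locus above, 23 and 28 at another and 2 and 13 at one more. Mbnl1 added the spliced locus and one of 0 and 11 reads, and Tead1 one of 3 and 7. In the natriuretic and stress list 6 of 12 genes had a locus, and only Ankrd1 had one of at least 10 reads, with 11 and 13. Of 17 genes with well known antisense transcripts 10 had a new locus, and those of at least 10 reads lay opposite Malat1, with 11 and 41 and with 8 and 15 reads, and Neat1, with 10 and 21.

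The last question was how far the libraries differed at single loci. For every feature with at least 10 reads together, the split between libraries was set against that of all mouse reads by an exact binomial test (two-sided), with a threshold of 0.05 after Benjamini-Hochberg adjustment over all 9576 features. Of 607 antisense loci, 34 were called, which is 5.6% beside 3.75% of all features. Of these, 29 were lower and 5 higher in replicate 1, which is 4.78% and 0.824% of antisense loci, beside 1.7% and 2.05% of all features. Lower and higher calls made up 7.52% and 5.26% of 133 intergenic loci (12.8% in all), and 1.4% and 2.08% of 8836 annotated genes (3.49% in all). The median log2 ratio of replicate 1 over replicate 2, with 1 CPM added, was −0.42 for antisense loci, −0.55 for intergenic loci and 0.04 for all features. All 8 cardiomyocyte markers had reads and summed to 35543 CPM in replicate 1, against 35994 CPM in replicate 2. The 4 adipocyte markers summed to 244 CPM in replicate 1, against 37.8 CPM in replicate 2. Most of this was Car3, with 132 and 29 reads, while Cfd had 29 and 7, Adipoq 5 and 2 and Plin1 2 and 0. Fibroblast markers summed to 684 and 511 CPM, endothelial to 131 and 156, erythroid to 7600 and 6943 and macrophage to 102 and 86.7. Of the defining markers of other tissues, the lung genes Sftpc and Scgb1a1 had no reads and the skeletal muscle list had 1 read in replicate 1. The part of cell composition in the difference between libraries was not tested.

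Among loci with reads in both libraries, Tnnt2 had the smallest adjusted p. Its 138 CPM in replicate 1 stood against 342 CPM in replicate 2, a ratio of 0.404 (95% interval 0.318 to 0.508, adjusted p = 1.46e-14 by the exact binomial test). The Tnnt2 gene itself had a ratio of 0.898 (0.780 to 1.03) and was not called. Over the locus, which lay mostly in an intron, models on the other strand had 49 and 110 reads, and no ratio was taken for these. Qk, at 0.627 (0.518 to 0.757), Dhrs3, at 0.638 (0.538 to 0.755), and Klhl31, at 0.807 (0.718 to 0.907), were also called lower in replicate 1. The locus by Gm42418 was called higher, at 1.29 (1.18 to 1.40). Actb was not called, at 0.801 (0.654 to 0.978). Of the 25 called loci whose partner was itself tested, the partner was called in 0. With 3.49% of all annotated genes called, this count is near the share over genes.

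The extreme ratios came from loci with reads in 1 library. The largest was at chr5:5781530-5781615 on the minus strand, opposite Gm26825, with 1436 reads in replicate 1 and 0 in replicate 2, at least 698-fold higher against a floor of 3 reads. This locus overlaps an exon of Gm15459 on its own strand, and Gm15459 had 75 reads in replicate 1 and 1458 in replicate 2. Locus and gene together had 2193 CPM and 1452 CPM, a ratio of 1.51 (1.40 to 1.62). Opposite Gmps, a model of 1 base had 19 reads in replicate 1 and a model of the next base had 36 in replicate 2, and each was called. Of the 34 called loci, 5 were of 1 base. The locus at chr2:180719390-180720046 had 28 and 0 antisense reads, while other models on its strand had 0 and 21.

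Among the lowest ratios, the locus opposite Gm10874, on exons shared with Got2-ps1, had 0 and 62 reads. Got2-ps1 itself had 0 and 5 reads, so that locus and gene together had 0 and 67. All other models on that strand, whatever their gene, had 64 and 5. At chr16:30183162-30185912 the locus had reads in both libraries, 1 and 27, a ratio of 0.0540 (0.00132 to 0.328), with 4 and 0 reads of other models on its strand. In all, 14 of the 34 called loci had no read in 1 library. In that library, 12 of these 14 had reads of other models on the strand, or antisense reads within 50 nt. Counted in either library, 15 of the 34 called loci had such reads. Of all 13695 loci, 221 overlapped an annotated exon on their own strand, and they held 15.03% of antisense reads in replicate 1 and 5.51% in replicate 2. Most of these 2880 and 1927 reads came from 2 loci, that opposite Gm26825 with 1436 and 0 and that by Gm42418 with 1033 and 1169.

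**Figure D5:**
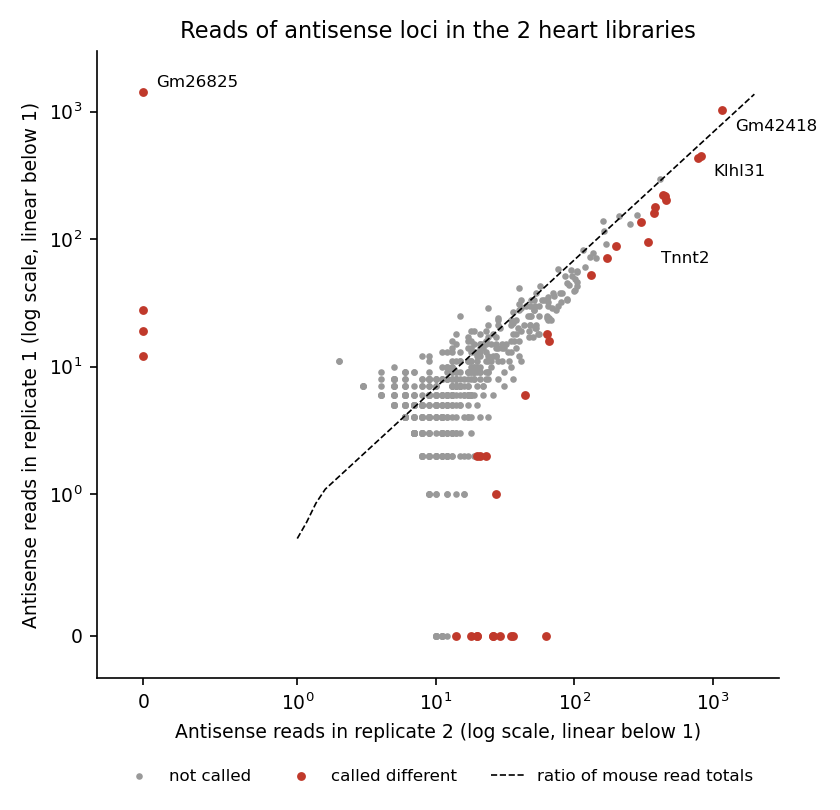
Antisense reads per locus in replicate 1 (y) and replicate 2 (x), both on log scales that are linear below 1, for the 607 loci of at least 10 reads together, with the 34 called loci in red and the ratio of mouse read totals as a dashed line. The locus opposite Gm26825 stands at 1436 and 0 reads, and Tnnt2 at 95 and 343.

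The synthetic ERCC spike-ins are annotated on the plus strand alone, so reads on their minus strand can be counted. In each library 42 of them had plus-strand reads, 10592 in replicate 1 and 15882 in replicate 2, and none of these 42 had a minus-strand read, which allows a share of up to 0.0283% and 0.0189%. Minus-strand reads came from 3 spike-ins in replicate 1 and 4 in replicate 2, with no plus-strand read on any of them. ERCC-00009 had 60 and 76 minus-strand reads, ERCC-00116 14 and 14, ERCC-00059 2 and 2, and ERCC-00099 0 and 1. Together these were 0.712% and 0.582% of spike-in reads, beside 2.78% and 3.49% of mouse reads on antisense models. Since these spike-ins had no plus-strand read, the shares of spike-in and mouse reads are unlike measures. The part of wrongly oriented reads in the mouse antisense reads was not tested.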

How the data were processed

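Long-read RNA sequencing of 2 heart libraries of 1 group was analysed. The authors deposited whole-number read counts per transcript model, not normalized, and an annotation of all models. Per the deposited text descriptions, coordinates are mm10 and known models GENCODE M21, and the source column names TALON for new models. No aligner, read filter or tool version is given in the sources used here. Depth was 699529 reads in replicate 1 and 1019974 in replicate 2, spike-ins included. Gene opposite, place (untranslated region, coding, intron) and sequence were taken from GENCODE M21 transcripts. A transcript's bases were placed on the genome through its exons, so only exonic windows could be read. Where a locus overlapped no exon of the other strand, the gene body was used. Intervals are 95% Clopper-Pearson.

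The members and lists were chosen with earlier results of these data known. Named were the 10 loci leading by the lower library's reads, 5 multi-exon loci, the 3 highest and 3 lowest ratios among called loci, and loci of at least 10 reads opposite listed genes. One of the 10 is not reported here. The end sequences were restricted to loci of at least 50 reads, and the spliced set added, after the data were seen. The binomial test was tested on simulated data. Alternative scalings used TMM factors (edgeR 4.0.16) and size factors (DESeq2 1.42.0). Calculations used Python 3.11.15, scipy 1.17.1, numpy 2.4.6 and pandas 2.3.3.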

Additional observations from a re-analysis of the deposited data

How the results depend on the processing

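The antisense share of mouse reads stayed lower in replicate 1 under each alternative tried (models of at least 2 reads, without models under 50 nt, without the locus with the most reads, without loci on annotated exons of their own strand), with means from 2.41% to 3.01%, and single libraries gave 2.78% and 3.49%. Called loci numbered 34, and 27 to 46 under other scalings, read minimums and joins, with the lower calls the more numerous each time. Settings that moved a value were these. Loci found in both libraries numbered 1198 with at least 2 reads in each and 413 with at least 5, against 2987. Loci with a multi-exon model made up 3.78% with models of at least 2 reads, against 5.22%, the value of each single library. Partners by gene body numbered 13578, against 6338 by exon overlap. Introns equal to one on the other strand made up 28.8% weighted by reads and 22.8% with models of at least 2 reads, against 16.3%, and single libraries gave 16.2% and 16.5%. At least 12 adenines followed 55.3% of 3' ends, 60.1% at a minimum of 10, 49.0% at 15, 59.7% without models under 50 nt and 63.3% in any window within 20 nt, and single libraries gave 52.6% and 58.1%. The hexamer in the 40 bases up to the 3' end was found in 7.43% of loci (6.93% and 7.92% in single libraries). It was found in 9.41% for 50 bases and in 9.23% without models under 50 nt. Weighted by reads it was found in 13.9%, and so weighted without the locus opposite Gm26825 in 5.30%. The causes were not tested. Joining loci within 50 nt, leaving out models under 50 nt, leaving out own-strand loci or the Gm26825 locus, any window within 20 nt, adenine weighted by reads and the restriction to loci of at least 50 reads were chosen after seeing the data. No paired analysis was possible because the series has 1 group.

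With 1 library a side, the binomial test has counting error only, and no spread between animals can be had. Most loci had 1 read, for which absence from the other library was within counting error. Model ends are those of the deposited annotation. Comparisons with intergenic models at the 3' end were not run, since their windows were not readable.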

Other observations

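The mitochondrial genome held 14 antisense loci with 95 reads in replicate 1 and 188 in replicate 2. The one over chrM:15356-16294, by the proline tRNA gene mt-Tp, had 6 and 44 reads and was called lower in replicate 1, with 6 and 0 reads of other models on its strand. It was chosen after its values were seen, as were the next loci.

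Of the 34 called loci 17 lay in the 3' untranslated region of the gene opposite, and of all 607 tested 55.2% did. Opposite Acot2, a mitochondrial acyl-CoA thioesterase, the locus had 136 reads in replicate 1 and 302 in replicate 2. Opposite Spry2, an inhibitor of receptor tyrosine kinase signalling, it had 71 and 172. Opposite Hipk3, a homeodomain-interacting protein kinase, it had 52 and 131, and opposite Zbtb44 it had 16 and 66. All 4 were called lower in replicate 1, with ratios of 0.656, 0.602, 0.579 and 0.353 by the exact binomial test. The partner genes Acot2, Hipk3 and Zbtb44 were tested and not called.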
